A study of Mus musculus with 8 samples.

Results

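Chemokine and inflammatory cytokine genes were examined in proliferating C2C12 cells, a mouse myoblast line, after silencing of the long non-coding RNA Pvt1. They were chosen by symbol from the array design as the CC, CXC and CX3C chemokine ligands together with Il6, Il11, Il1a, Il1b, Lif, Csf1, Csf2, Csf3 and Tnf. This gave 44 genes of 27248 genes named on the array, read by 64 of 56605 probes. They comprised 21 CC chemokines, 13 CXC chemokines, 1 CX3C chemokine and 9 cytokines. RNA came from cells at passage 10 that were transfected with Lipofectamine 2000. In the 4 silenced cultures, which the labels do not split by GapmeR, the transfection carried LNA GapmeRs against Pvt1, and in the 4 negative control cultures it carried negative control GapmeRs. C2C12 is a single established line, so the 8 cultures share one origin. Each culture was hybridised to a one-colour array, and all 8 arrays lay on 1 slide.

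Chemokines are small secreted proteins that attract leukocytes through G protein-coupled receptors, and they are named by the spacing of the first cysteines in the protein (CC, CXC, CX3C). Myoblasts are known to secrete several of them, among them Ccl2, together with the cytokines Il6 and Lif, and these attract macrophages to regenerating muscle. Transcription of many of these genes is switched on by NF-kappaB and by interferon-activated factors, and many of their mRNAs are short-lived because proteins that bind AU-rich elements recruit decay enzymes.

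Both GapmeRs named in the labels are antisense oligonucleotides that pair with Pvt1 and direct RNase H to cleave it. They are printed here, 5′ to 3′ and in capitals throughout, because they are the only designed sequences that set the silenced group apart.
Pvt1_1: ACCGTAGTAGAGTTAA
Pvt1_3: AGTCAACGCTTCACAT

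Cxcl10 is among the members that were measured only after silencing, and its promoter holds matches to both kinds of site named above. The 250 bases before its start site are from RefSeq (GRCm38.p6, chr5:92348890-92349139, minus strand). Capitals mark 1 match to the interferon response element (GAAANNGAAA), which begins 213 bases before the start site, and 2 matches to the NF-kappaB consensus, which begin 159 and 103 bases before it, and none of these overlap.
Cxcl10 promoter: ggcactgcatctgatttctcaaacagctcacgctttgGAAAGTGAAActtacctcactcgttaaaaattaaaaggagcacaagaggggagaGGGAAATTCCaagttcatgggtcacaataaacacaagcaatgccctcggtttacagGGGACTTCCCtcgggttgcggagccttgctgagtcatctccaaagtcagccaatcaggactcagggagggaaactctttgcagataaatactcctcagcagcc

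The same source held a promoter for 32 of the 44 genes, and none for the detected Ccl2, Ccl5, Ccl7, Cxcl5 or Cxcl11. Searched on both strands over 300 bases, the interferon response element occurred in those of Ccl19, Cxcl10 and Cxcl14, 3 genes of 32, and in 3.44% of all 32851 promoters. Members are counted here by gene (32 genes with 36 promoters) and the percentages by promoter, so the units differ. Matches to the NF-kappaB consensus occurred in 9 of the 32 genes, namely Ccl9, Ccl20, Ccl27a, Csf1, Cxcl1, Cxcl2, Cxcl3, Cxcl10 and Il6, and in 4.51% of all promoters. Thus Ccl9, which rose, and Csf1, which fell, each held an NF-kappaB match, while Ccl8, which rose, and Cxcl12, which fell, held neither kind. The matches describe the sequence and were not tied to binding by any factor or to the changes reported below.

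The target itself was lower in the silenced cultures. The brightest Pvt1 probe (mm9, chr15:62081020-62081079) gave log2 signals of 9.65, 9.79, 10.31 and 9.70 in control replicates 1 to 4 and 7.09, 6.69, 7.85 and 6.39 in silenced replicates 1 to 4. It fell by 2.86 on the log2 scale (SE 0.32, limma adjusted p = 0.000682), to 13.8% of control. Silenced replicate 4 stood apart in the share of spots positive and significant over background, 51.6% against 58.8% to 62.5% on the other 7 arrays. It was the lowest of its group in 15 of 15 detected genes described here, and in 87.1% of 25904 probes with a value on all 4 silenced arrays. The arrays were also placed unevenly, with 3 control arrays and 1 silenced array in the upper row of the slide, so values with the slide row in the fit are given beside the calls of these genes that it ended.

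A smaller share of these genes was detected than of all genes on the array. A gene was called detected when 1 of its probes was well above background on all 4 arrays of at least 1 group. That held for 15 of the 44 genes (34.1%), against 12456 of 27248 genes (45.7%) on the whole array. The detected genes were Ccl2, Ccl5, Ccl7, Ccl8, Ccl9 and Ccl25 of the CC family, Cxcl1, Cxcl5, Cxcl10, Cxcl11 and Cxcl12 of the CXC family, Cx3cl1, and the cytokines Csf1, Il11 and Tnf. By family these were 6 of 21 CC chemokines, 5 of 13 CXC chemokines and 3 of 9 cytokines. In bulk RNA of this kind, a change in the number of expressing cells and a change in RNA per cell cannot be told apart.

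In the control cultures alone 12 of the 44 genes (27.3%) were detected on all 4 arrays, against 44.5% of all genes. In the silenced cultures 14 (31.8%) were, against 42.2% of all genes. Ccl5 and Cxcl10 were well above background on all 4 silenced arrays and on no control array, a pattern met by 0.261% of all genes. The opposite pattern was met by 0 of the 44 genes and by 1.49% of all genes.

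**Figure D1:**
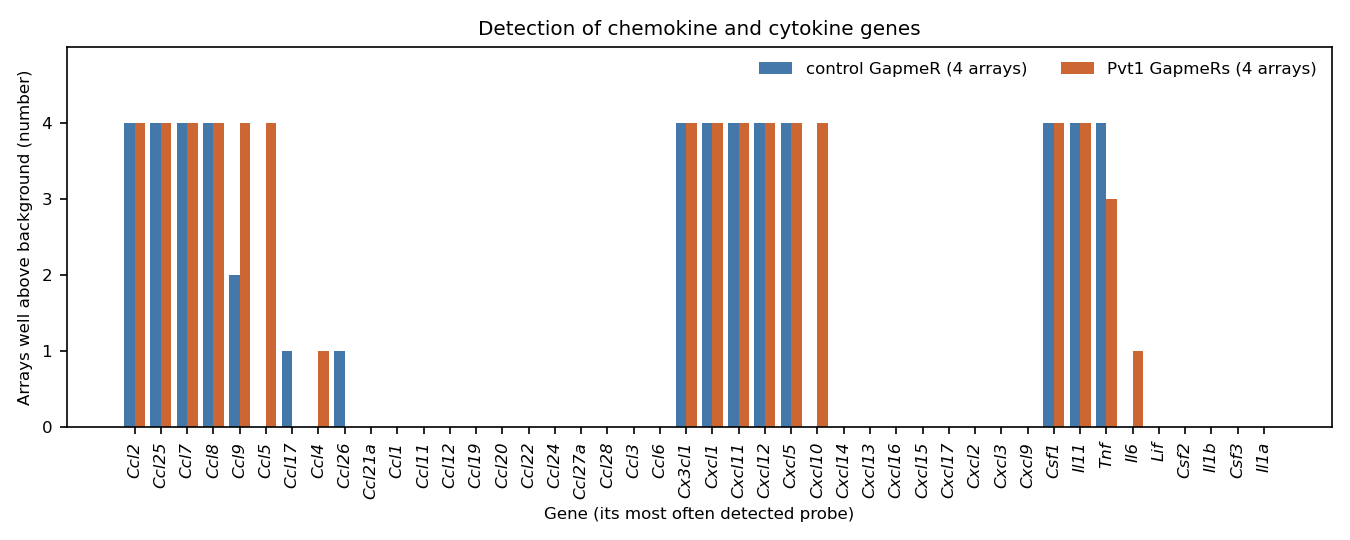
Number of arrays, of 4 in each group, on which the most often detected probe of each gene was well above background, for all 44 genes ordered by family (CC, then CX3C and CXC, then cytokines) and by that number. Ccl5 and Cxcl10 have bars of 4 arrays for the Pvt1 GapmeRs and none for the controls, Ccl4 and Il6 have 1 silenced array and no control array, Ccl9 reached 2 control arrays and 4 silenced arrays, and 25 genes have no bar.

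The other 29 genes were not detected, and 25 of them (56.8%, against 43.4% of all genes) were well above background on no array. Among these were the inflammatory cytokines Il1a and Il1b, the colony-stimulating factors Csf2 and Csf3, the macrophage-derived Ccl3, and the neutrophil attractants Cxcl2 and Cxcl3. The rest of the 25 were Ccl1, Ccl6, Ccl11, Ccl12, Ccl19, Ccl20, Ccl21a, Ccl22, Ccl24, Ccl27a, Ccl28, Cxcl9, Cxcl13, Cxcl14, Cxcl15, Cxcl16, Cxcl17 and Lif. Ccl21a and Ccl27a have near-identical copies in the mouse genome that their probes may not tell apart. Ccl17, Ccl26 and Il6 each reached that level on 1 array of 8. Ccl4 reached it on 2, each through a different probe, with 10.92 on silenced replicate 1 and 6.32 at an overlapping probe on silenced replicate 2. Ccl26 likewise read 10.73 on 1 control array and had no value on the others, so neither gene was counted as measured.

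A change could be tested for 15 of the 44 genes, those having a value on 3 or more of the 4 arrays of both groups. These were the detected genes without Ccl5 and Cxcl10, which lacked control values, and with Ccl21a and Cxcl14, which had values but were not well above background. By limma at an adjusted p under 0.05, 2 rose (Ccl8 and Ccl9), 3 fell (Cxcl5, Cxcl12 and Csf1) and 10 were not called. Of all 15444 genes tested, 6.59% were called higher and 13.2% lower. The median change of the 15 was 0.06 on the log2 scale, against -0.05 over all genes, and the changes ran from -2.98 to 1.54. The called genes thus moved both ways.

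When the mask on dim spots was left out, all 44 genes had values. Then 9 were called higher (Ccl5, Ccl8, Ccl9, Ccl25, Cx3cl1, Cxcl10, Cxcl13, Il6 and Il11) and 4 lower (Ccl7, Csf1, Cxcl5 and Cxcl12), against 13.0% of all genes higher and 6.51% lower. The median change over the 44 was 0.03, against 0.02 over all genes, but 25 of the 44 were well above background on no array. Over the 15 detected genes the median was 0.57, with 7 called higher (46.7%) and 4 lower (26.7%). The shares of all genes include undetected ones. Of the 15, Ccl5, Ccl9 and Cxcl10 met the detection criterion through the silenced arrays alone, and Tnf through the controls alone. With the slide row also in the fit, limma no longer called Ccl7 (adjusted p = 0.0520), Ccl25 (adjusted p = 0.0553) or Il11 (adjusted p = 0.173). Without the mask, values below background enter the fit, so a change against such a group depends on how background was removed.

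**Figure D2:**
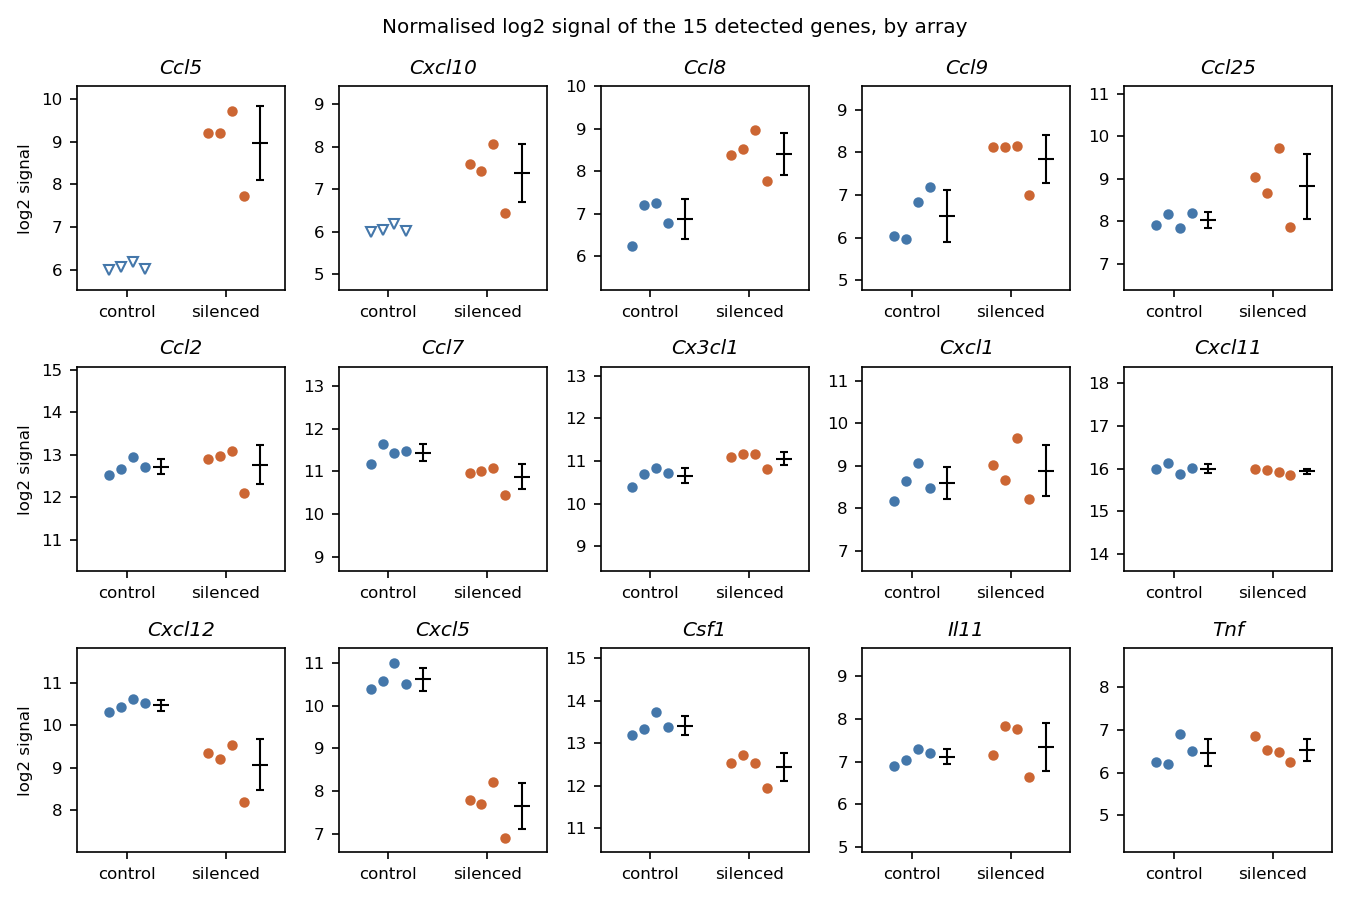
Quantile-normalised log2 signal of the brightest probe of each of the 15 detected genes, with 1 point per array (replicates 1 to 4 from left to right), and the mean and SD at the right of each group. Open triangles for Ccl5 and Cxcl10 mark, on each control array, the lowest level among probes well above background, since those controls had no value. Every panel spans the same range of log2 units, and Cxcl5 shows the widest gap between groups among genes measured in both.

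Ccl5 (RANTES), which attracts T cells and monocytes, was the member with the largest bound. Its probe (mm9, chr11:83339296-83339355, minus strand) had no value in any control culture and read 9.22, 9.20, 9.73 and 7.72 in silenced replicates 1 to 4. It was therefore at least 7.51-fold higher after silencing, and at least 10.0-fold higher without silenced replicate 4. Without the mask limma called it higher (adjusted p = 2.97e-05), but against control spots not above background. Neither that p-value nor the size of the change rests on measured control values, and the size depends on the background correction.

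Cxcl10, a ligand of Cxcr3 that interferons induce, followed the same pattern at a lower level. Its probe at chr5:92775781-92775840 (mm9, minus strand) had no control value and read 7.59, 7.42, 8.06 and 6.45 in silenced replicates 1 to 4. The gene was at least 2.50-fold higher after silencing, and at least 3.1-fold higher without silenced replicate 4. Without the mask limma called it higher too (adjusted p = 1.53e-05), with the same limits on the p-value and the size. A second Cxcl10 probe, which lies 835 bases to the 5′ side in the gene at chr5:92776616-92776675, was not positive and significant on any of the 8 arrays.

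Ccl8 (MCP-2), a monocyte attractant, rose 2.90-fold. Its log2 signals were 6.24, 7.21, 7.24 and 6.78 in control replicates 1 to 4 and 8.39, 8.52, 8.96 and 7.76 in silenced replicates 1 to 4. The groups did not overlap, with the lowest silenced array above every control array. The change was 1.54 (SE 0.31, limma adjusted p = 0.00812), and it was 1.49 within the upper row and 1.63 within the lower row.

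Ccl9, a chemokine of myeloid cells found in rodents, also rose, with less certainty. Control replicates 1 to 4 read 6.04, 5.96, 6.84 and 7.19, of which 2 were well above background, and silenced replicates 1 to 4 read 8.12, 8.13, 8.16 and 7.0. The groups overlapped in these masked values, since silenced replicate 4 lay below control replicate 4, but did not overlap without the mask. The change was 1.34 (SE 0.36, limma adjusted p = 0.0263). With the slide row in the fit it was 1.20 (adjusted p = 0.112), and the differences were 1.84 within the upper row and 0.57 within the lower row. The call was also lost when control replicate 1 or 2, or silenced replicate 1, 2 or 3, was left out.

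Ccl2 (MCP-1) and Ccl7 (MCP-3), the other monocyte attractants detected, did not pass the test. Ccl2 read 12.53, 12.66, 12.95 and 12.72 in control replicates 1 to 4 and 12.89, 12.98, 13.09 and 12.10 in silenced replicates 1 to 4. Its change was 0.05 (SE 0.25, limma adjusted p = 0.911), with overlapping groups. Ccl7 read 11.16, 11.65, 11.44 and 11.49 in the controls and 10.95, 11.02, 11.09 and 10.45 after silencing. Every silenced value of Ccl7 was below every control value, and the change of -0.56 (SE 0.22) had a limma adjusted p of 0.0923. Without the mask it was -0.36 (adjusted p = 0.0140), and with the slide row also in that fit it did not pass (-0.37, adjusted p = 0.0520).

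Ccl25, a chemokine of thymus and small intestine that signals through Ccr9, had a change of 0.79 at its brightest probe (SE 0.35, limma adjusted p = 0.134). That probe read 7.93, 8.17, 7.84 and 8.21 in the controls and 9.04, 8.68, 9.72 and 7.88 after silencing, so silenced replicate 4 fell among the controls. Without the mask the groups did not overlap at that probe. A dimmer Ccl25 probe 5714 bases to its 5′ side had a change of -0.56 (SE 0.69, adjusted p = 0.606), which turned to 0.35 without the mask. The brightest probe was called in 4 of 20 alternatives, namely cyclic loess, the authors' table, no mask, and without silenced replicate 4 (1.11, limma adjusted p = 0.0148).

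Chromosome 11 holds 15 of the 44 genes, and differences in change between neighbours were not tested. The Ccl2 and Ccl7 probes lie 10006 bases apart and that of Ccl8, which rose, lies 79.5 kb from Ccl2, while Ccl11, Ccl12 and Ccl1 of the same group were not detected. In the second group Ccl5 and Ccl9 lie 48.9 kb apart and were the only ones detected of Ccl5, Ccl9, Ccl6, Ccl3 and Ccl4.

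**Figure D3:**
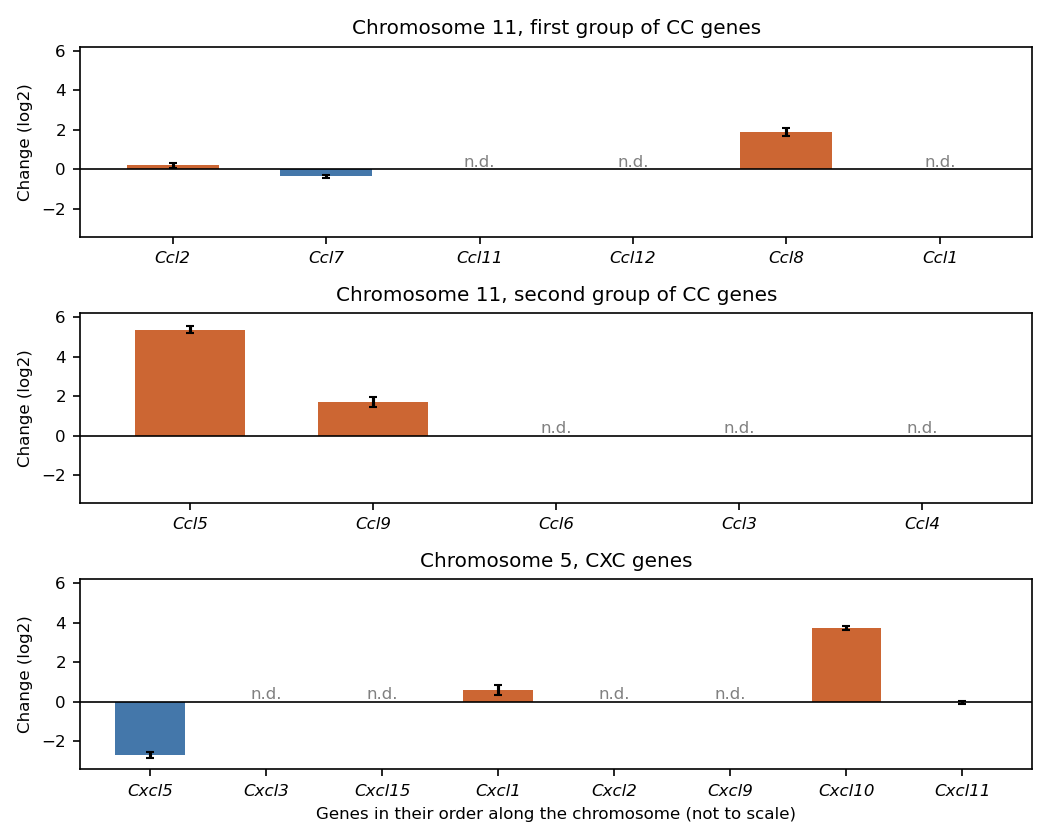
Change in log2 signal after silencing, fitted without the mask on dim spots so that Ccl5 and Cxcl10 have a value, for the brightest tested probe (or the detected probe) of genes in their order along chromosomes 11 and 5. Error bars are SE, orange is higher and blue lower in silenced cultures, and n.d. marks a gene that was not detected. The bars of Ccl5 and Cxcl10 are set against control spots not above background, so their heights depend on the background correction, and differences between genes were not tested.

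Of the CXC chemokines, Cxcl5 fell most. It is a neutrophil attractant that acts through Cxcr2. Control replicates 1 to 4 read 10.40, 10.59, 11.01 and 10.50, and silenced replicates 1 to 4 read 7.79, 7.69, 8.21 and 6.90. The groups lay far apart, and the change of -2.98 (SE 0.29, limma adjusted p = 0.000463) left 12.7% of the control level, 7.89-fold lower. The differences were -2.88 within the upper row and -2.90 within the lower row.

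Cxcl1, another ligand of Cxcr2, lies 132 kb from Cxcl5 and did not pass. It read 8.18, 8.64, 9.07 and 8.49 in the controls and 9.01, 8.67, 9.66 and 8.21 after silencing, with overlapping groups. Its change was 0.29 (SE 0.32, limma adjusted p = 0.559). Whether the changes of Cxcl5 and Cxcl1 differed was not tested.

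Cxcl12 (SDF-1), the ligand of Cxcr4 and Ackr3 that guides migrating muscle precursors, fell to 38.0% of control. Its brightest probe read 10.32, 10.43, 10.62 and 10.52 in the controls and 9.36, 9.21, 9.53 and 8.21 after silencing. No silenced value reached the controls, and the change was -1.39 (SE 0.29, limma adjusted p = 0.00871). A second Cxcl12 probe, 6201 bases to its 5′ side, had a change of -0.88 (SE 0.49, adjusted p = 0.224).

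Cxcl11, which shares the receptor Cxcr3 with Cxcl10 and lies 12.8 kb from it, gave different answers at its probes. The brighter probe (chr5:92788567-92788626) read 15.98, 16.13, 15.87 and 16.01 in the controls and 16.00, 15.97, 15.92 and 15.85 after silencing, a change of -0.06 (SE 0.17). It ranked between 325 and 433 from the brightest of all probes on every array and was not saturated. The other probe (chr5:92788640-92788699), which starts 73 bases away, read 10.70, 11.05, 10.51 and 10.80 in the controls and 11.88, 11.80, 12.28 and 11.14 after silencing. There the groups did not overlap and the change was 1.01 (SE 0.26, limma adjusted p = 0.0228). With the slide row in the fit that change was 1.03 (adjusted p = 0.0810). The third ligand of Cxcr3, Cxcl9, lies 23.6 kb from Cxcl10 and was well above background on no array.

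Cx3cl1 (fractalkine), a membrane-bound chemokine, read 10.40, 10.69, 10.84 and 10.71 in the controls and 11.10, 11.15, 11.16 and 10.82 after silencing. The groups met at silenced replicate 4, which lay below control replicate 3. The change was 0.40 (SE 0.19, limma adjusted p = 0.165). Without the mask it was 0.60 and passed (adjusted p = 0.0057), and the groups did not overlap.

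Csf1 (M-CSF), which maintains macrophages, was the one cytokine called. The brightest Csf1 probe (mm9, chr3:107544333-107544392) read 13.20, 13.33, 13.72 and 13.37 in the controls and 12.55, 12.72, 12.54 and 11.95 after silencing. Those groups did not overlap, and the change was -0.97 (SE 0.23, limma adjusted p = 0.0152), to 51.2% of control. With the slide row in the fit it was -0.92 (adjusted p = 0.0795). The gene lies on the minus strand, and 2 overlapping probes about 4.2 kb to the 5′ side had changes of 0.14 (SE 0.35) and 0.27 (SE 0.34), neither called. Relative to the first of those probes, the brightest probe stood 3.65 to 4.05 log2 units higher on the control arrays and 2.18 to 3.25 higher on the silenced arrays, so the signals along Csf1 changed unequally.

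Il11, a cytokine of the Il6 family that signals through gp130, read 6.90, 7.04, 7.30 and 7.21 in the controls and 7.16, 7.82, 7.76 and 6.63 after silencing. Tnf, an activator of NF-kappaB, read 6.26, 6.21, 6.90 and 6.50 in the controls and 6.86, 6.54, 6.48 and 6.24 after silencing. In both genes the groups overlapped, with changes of 0.23 (SE 0.28, limma adjusted p = 0.609) for Il11 and 0.06 (SE 0.23, adjusted p = 0.879) for Tnf.

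Il6, the founding member of that family, stayed near background. Its brighter probe was positive and significant on all 4 silenced arrays (5.48, 5.70, 6.39 and 4.02) and on no control array, but was well above background on 1 silenced array only, so no fold is given. Cxcl13, a B cell attractant, was similar, with 5.08, 5.13, 5.84 and 4.48 after silencing, 4.56 in control replicate 3 and no value in the other controls. Neither was tested with the mask. Without it limma called both higher (adjusted p = 0.00305 for Il6 and 0.00641 for Cxcl13). Those fits set values near background against control spots mostly not above it, so no size is given and no conclusion is drawn from them.

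**Figure D4:**
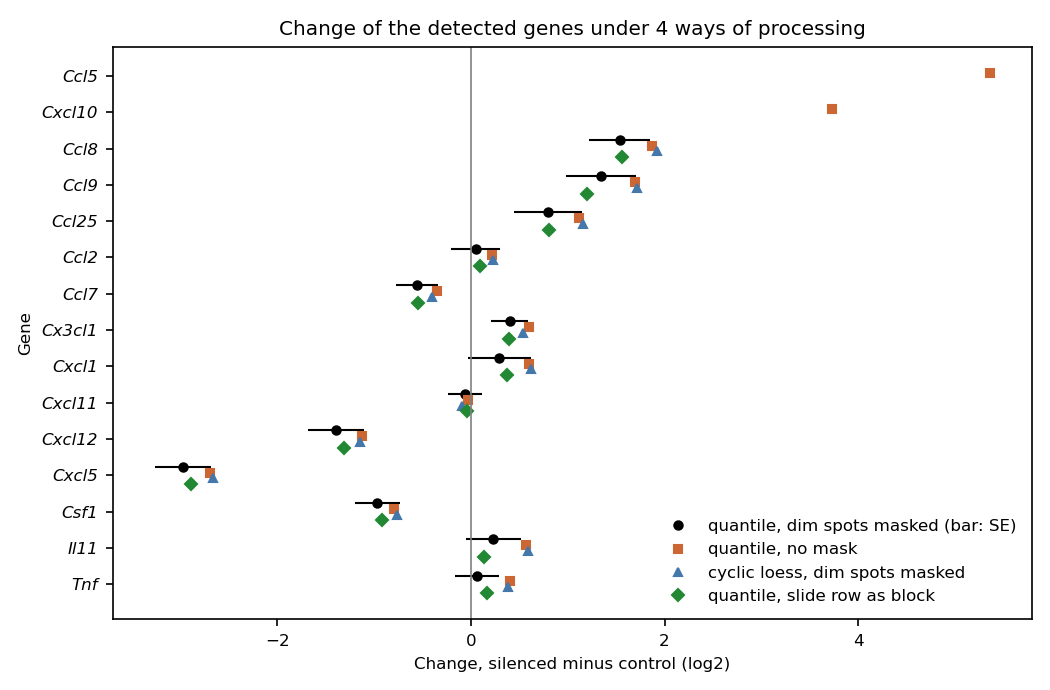
Change in log2 signal of the 15 detected genes after silencing, for the same probe under 4 ways of processing, with the SE drawn on the values as reported. Ccl5 and Cxcl10 have a value only without the mask. Cxcl5, Cxcl12 and Csf1 lie left of 0 and Ccl8 and Ccl9 right of 0 in all 4, and most values lie further right without the mask and with cyclic loess.

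Receptors and signalling genes were read from lists of symbols, to be set against the 6.59% higher, the 13.2% lower and the median change of -0.05 of all genes tested. Of 21 chemokine receptors on the array only Ackr3 and Cxcr6 were detected, and 14 were well above background on no array. Of the 4 tested, 0 rose and 1 fell (25.0%), with a median change of 0.62. The one that fell was Cxcr4, a receptor of Cxcl12 (change -1.18, SE 0.27, limma adjusted p = 0.0138), which was well above background on 3 control arrays and no silenced array. Ackr3, the other receptor of Cxcl12, had a change of 0.39 (limma adjusted p = 0.192), and Cxcr6, the receptor of Cxcl16, of 0.86 (adjusted p = 0.0868). Without the mask limma called both higher, by 0.55 for Ackr3 (adjusted p = 0.0283) and 1.21 for Cxcr6 (adjusted p = 0.0150), and cyclic loess did likewise.

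Of 15 cytokine receptor genes (Il1rn, the Il1 receptor antagonist, included) 12 were detected, and 1 rose (7.69%) and 3 fell (23.1%) of 13 tested, with a median change of -0.22. Csf3r, the receptor of Csf3, rose by 1.04 (SE 0.29). Csf1r, the receptor of Csf1, had a change of -1.12 (SE 0.30), Il1r1, the signalling receptor of Il1, of -0.76 (SE 0.23), and the dim Csf2rb, the shared beta chain, of -1.02 (SE 0.30).

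All 25 genes of the NF-kappaB list were detected, of which 2 rose (8.0%) and 4 fell (16.0%), shares near those of all genes with the mask, with a median change of -0.20. Among the called genes the largest changes were those of the kinase Ripk1 (-1.0), the deubiquitinase Cyld (-1.0), which restrains the pathway, the inhibitor Nfkbib (-0.94) and the adaptor Traf2 (0.79). Nfkbia, the main inhibitor, fell by 0.62 and the adaptor Tradd rose by 0.64.

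Of the 13 genes of the JAK-STAT and C/EBP list, all detected, 3 rose and 3 fell (23.1% each), with a median change of 0.06. Cebpd, a transcription factor of the acute-phase response, rose by 1.48 (SE 0.29, limma adjusted p = 0.00635), and Stat5b by 0.86. The kinase Tyk2, which acts downstream of cytokine receptors, fell by 0.95 (SE 0.24, adjusted p = 0.0205).

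Among 11 proteins that bind AU-rich elements or otherwise control cytokine mRNA decay, all detected, 1 rose (9.09%) and 3 fell (27.3%), with a median change of -0.18. Zfp36 (tristetraprolin), which promotes decay of Tnf mRNA, fell by 0.78 (SE 0.22, limma adjusted p = 0.0329). Hnrnpd (AUF1) and Tial1 each fell by 0.83, and Tia1 rose by 0.98. Over the 5 lists 7 genes rose and 14 fell of 66 tested, where all genes gave 6.59% higher and 13.2% lower. With the slide row in the fit 1 rose, Cebpd, and 0 fell. Without the mask, Cxcr4, Il1r1, Pias3, Zfp36 and Csf2rb were among those no longer called lower, and Csf2rb was called higher by its then brightest probe. The counts also moved when 1 array was left out, to between 1 and 15 higher (15 without silenced replicate 4, and 1 or 2 without silenced replicate 1, 2 or 3 or control replicate 1, 2 or 4, each left out alone) and between 5 and 15 lower (9 without control replicate 1, and 5 without control replicate 2 or 4).

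Markers of other cell types were read beside these genes. The calls of these, of the liver genes and of the myoblast markers are given without the slide row in the fit. That term ended most calls of the lists above. Of 12 leukocyte markers 7 were detected, 3 of 9 tested rose (33.3%, against 6.59% of all genes) and 2 fell (22.2%, against 13.2%), and 5 (Cd79a, Adgre1, Lyz2, S100a8 and S100a9) were well above background on no array. Ptprc (CD45) and Cd3e were well above background on all 8 arrays, with changes of 1.26 (limma adjusted p = 0.0588) and 0.09. Cd68, Cd14 and Ly6g rose, by 1.84, by 0.87 and at least 1.86-fold, while Itgam and Csf1r fell by 1.08 and 1.12. The linear signal without the mask, summed over the brightest probe of each gene of the list, ran from 6971 to 7706 across the control arrays. Across the silenced arrays it ran from 8368 to 11249, and such a sum weighs the brightest genes most. Of 5 endothelial markers 0 were detected.

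Of 10 liver plasma protein genes, 5 were detected (against 45.7% of all genes), 4 of them on silenced arrays only (Alb, Fgb, Ahsg and Mup1). Of 3 tested, 1 rose (33.3%, against 6.59% of all genes), namely Fgg (2.63, SE 0.39, limma adjusted p = 0.00264), and 0 fell. Without the mask 7 of 10 were called higher (70%, against 13.0% of all genes) and 0 lower, mostly against control spots not above background. The summed signal, taken in the same way as above, ran from 905 to 1754 across the control arrays and from 4055 to 5330 across the silenced ones. Ccl5 and Cxcl10 shared with Alb, Fgb, Ahsg and Mup1 the pattern of detection on all silenced arrays and no control array, which 0.261% of all genes met. The liver list was added after the data were seen, so the shared pattern is a description only. Of 8 myoblast markers, all tested, 7 were detected, 4 fell (50%, against 13.2% of all genes) and 0 rose (against 6.59%), with changes of -1.95 for Myod1, -1.35 for Des, -1.05 for Msc and -0.86 for Cdh15 and a median change of -0.64. Myf5, which was well above background on no array, had a change of 0.94 (limma adjusted p = 0.0530), which was called without the mask (1.16, adjusted p = 0.0170), and Chrna1, Itga7 and Ncam1 were not called with or without it. The part of these markers in the chemokine changes was not tested.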

How the data were processed

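Gene expression was measured with one-colour Agilent arrays in 8 cultures, 4 per group, grouped by the labels. The scanner files the authors deposited give the linear intensity of every spot. Feature Extraction 12.0.0.7 wrote them per the file headers and subtracted background, while the submitters' processing notes name 10.7.3.1. A table of normalized intensity for the whole series, made by the authors, served as an alternative. Other deposited columns are flags of 0 or 1 for spots above background, outlying or saturated.

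Following the study's methods, spots not positive and significant were set to missing, log2 values were quantile normalised and spots of 1 probe were averaged. Outlying spots were also left out. These log2 values, taken from the deposited intensities, entered a limma fit (limma 3.58.1, R 4.3.3) that had only the group as a term. It covered 28649 probes, each with 3 or more of 4 values per group. P-values are two-sided and adjusted by Benjamini-Hochberg over all those probes, at 0.05. A gene was represented by its brightest tested probe. For an "at least" fold, each dim array contributed either the probe's value or the lowest signal of any probe well above background, whichever was higher, and the mean of these was set against the mean of the bright group. The fit was also run on simulated data, whose outcome is not given here. Of 512 member spots 0 were saturated.

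The labels call the cultures biological replicates, and 4 arrays per group limit the precision. The slide and scan were the same for all arrays. Alternatives were other normalizations, masks, priors, blocks, probes per gene, the methods' t-test, the authors' table and leaving out each array. The fits without the mask that add a block or leave out an array (for genes other than Ccl5 and Cxcl10, the slide row only) and the liver list were added after the data were seen. The genes and lists were chosen with earlier results of these data known. Every detected member is described, and of each pathway list up to 4 called genes with the largest change among well detected probes, with any others in counts of 5 or fewer chosen after their values were seen. Symbols follow the array design, and of 59 member probes with a RefSeq accession 57 matched the RefSeq gene table, 0 under another symbol. Coordinates are mm9 as in the files. Exon and UTR positions of probes were not analysed here. Some items of the lists are not reported here by name.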

Additional observations from a re-analysis of the deposited data

Results flagged for a closer look

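In 2 of 28 groups of 4 arrays examined, 1 array lay apart from the others, where chance gives about 1 in 20. Ccl9 read 7.0 in silenced replicate 4, against 8.12 to 8.16 on the other silenced arrays. Cx3cl1 read 10.82 in silenced replicate 4, against 11.10 to 11.16. The same array had the fewest spots above background, and the cause was not tested.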

How the results depend on the processing

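The count of 15 detected genes held with any 1 array left out and when 3 of 4 arrays were required, and it was 18 with the positive-and-significant criterion. Against 2 genes called higher of 15 tested, 6 were called with cyclic loess. With the authors' table and without the mask 9 were called, each of 44 tested. The count was 1 each with the mask of spots not well above background, with the replicate block, with the slide row and with the methods' t-test after Benjamini-Hochberg. Against 3 called lower, 1 was called with the mean of all tested probes of a gene, where Csf1 and Cxcl12 lost their calls. Leaving out 1 array gave 1 to 3 genes higher, 3 to 4 lower, and a median change of -0.01 to 0.27. Over the pathway lists, against 7 higher and 14 lower of 66 tested, the 75th percentile shift gave 12 higher and cyclic loess 21, also of 66. The authors' values and the fit without the mask each gave 20 higher and 10 lower, of 85 tested. Without the mask 13.0% of all genes were called higher and 6.51% lower. The replicate block gave 3 higher and 6 lower, the slide row 1 and 0, and the t-test 1 and 7. Leaving out 1 array gave 1 to 15 higher and 5 to 15 lower.

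At the brightest probe, Cxcl5 and Ccl8 passed in all 20 alternatives run for each. Ccl5 and Cxcl10 passed in all 11 of theirs, but every one used control spots not above background. Those passes are therefore no measure of robustness. Csf1 and Cxcl12 passed in 19 of 20, and the exceptions were the slide row for Csf1 and the t-test for Cxcl12. Ccl9 passed in 11 of 19, and not with the replicate block (adjusted p = 0.0529), the slide row, the t-test, or without control replicate 1 or 2 or silenced replicate 1, 2 or 3. Ccl7 passed in 6 of 20. Ccl2 turned sign without control replicate 1 (-0.01) and without silenced replicate 2 (-0.021) or 3 (-0.059), and Tnf without control replicate 1 (-0.0083) or 2 (-0.022) and without silenced replicate 1 (-0.048). With 1 array left out, Ccl2 ranged from -0.059 to 0.27 and Tnf from -0.048 to 0.207; neither was called in any of these. Cyclic loess moved the median of all genes from -0.05 to 0.15. The replicate numbers did not pair the cultures (same-number correlations of deviations -0.04, 0.19, 0.22 and 0.06), so the replicate block is given here only. The methods' t-test at the unadjusted threshold called 3 of these genes higher and 4 lower, and after Benjamini-Hochberg 1 and 2. Causes were not tested. For genes near background the size of a change depends on the background correction, and 4 arrays per group leave standard errors of 0.17 to 0.36 on the detected genes.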
